A study of Mus musculus with 8 samples.

Results

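The genes described here are 9 members of the STAT, IRF and SOCS families, namely *Stat2*, *Stat3*, *Stat5a*, *Stat5b*, *Stat6*, *Irf1*, *Irf9*, *Socs1* and *Socs3*. They were taken by name: every spot that is not a control and whose gene name on the array was one of these 9 symbols was used. This gave 16 of the 56605 probes and 9 of the 37074 gene names on the array.

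STAT proteins are transcription factors that wait in the cytoplasm. A cytokine binding to its receptor activates a Janus kinase, which phosphorylates the STAT, and the STAT then pairs, enters the nucleus and binds DNA. Type I interferon acts through a complex with STAT2 and IRF9 that binds the interferon-stimulated response element, whereas much of the later response to interferon gamma runs through the transcription factor IRF1. STAT3 carries the signal of the interleukin-6 family and of leptin, STAT5A and STAT5B that of growth hormone and prolactin, and STAT6 that of interleukin-4 and interleukin-13. SOCS1 and SOCS3 are induced by these cytokines and switch their receptors off again. In adipose tissue this pathway connects hormones of metabolism with cytokines of inflammation.

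The study asked how a single intravenous dose of sonicated *Porphyromonas gingivalis*, a bacterium of periodontal disease, changed gene expression in brown adipose tissue (BAT). All mice were unmodified C57BL/6J males aged 12 weeks. Pg mice received the sonicate in 100 μL of saline, at a dose that the sample labels print as 108 CFU, and Co mice received saline alone. In the study's methods the last digit of this dose is an exponent of the digits before it, which the label has lost. Tissue was taken 18 h later from interscapular fat, and 200 ng of RNA from each of 4 Co and 4 Pg mice was labeled with Cy3 and hybridized to 1 Agilent array per mouse. The sonicate holds many bacterial components, no second dose or time was hybridized, and the arrays measured whole tissue.

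Values are log2 signals after quantile normalization between the 8 arrays, and a difference of 1 on this scale is a doubling. The 33819 probes whose signal was flagged well above background on 4 or more arrays were tested with limma, with q as the Benjamini-Hochberg adjusted p over these probes. A probe was called at q under 0.1, and a DEG also had a |fold change| above 1.5. For a gene with several probes, the probe with the highest mean signal stood for it. A Co array had 34760 to 35831 probes well above background and a Pg array 31132 to 34063, without overlap. The arrays shared 1 slide and 1 scan, with Co in row 1 and Pg in row 2, so that row and group cannot be told apart. *Ucp1*, which defines the brown adipocyte, gave no signal well above background on these 8 arrays. The same held for *Elovl3*, *Bmp8b* and *Slc27a2*. The other brown adipocyte markers were mostly present, with 13 of 18 above background on all 8 arrays, but so were all 20 skeletal muscle markers, among them *Myh4* and *Ckm*. The summed signal of the brown adipocyte markers was 614735 to 657855 in Co mice and 648332 to 702949 in Pg mice. The sum of the 20 muscle markers was far higher, at 4395470 to 4626070 in Co mice and 4281540 to 4552240 in Pg mice. Of these 20, 17 were lower in Pg mice, at a median log2 fold change of −0.06, and *Atp2a1*, the calcium pump of fast muscle, was called (−0.44, limma, q = 0.0411). Among 7 T and B cell markers tested, 3 were higher, and *Cd79b*, of the B cell receptor, was called (1.69, q = 0.0867). The summed signal of 12 endothelial cell markers was 32244.7 to 38049.4 in Co mice and 41352.7 to 44313 in Pg mice, without overlap (two-sided exact permutation test, p = 0.0286, which is the lowest value that the 70 splits allow). Single genes did not all follow this sum: *Egfl7* and *Kdr* were called higher (0.42 and 0.57 on the log2 scale), whereas *Pecam1*, *Tek* and *Tie1* were at −0.20, −0.14 and −0.14, and the median over the 12 genes was 0.08. The summed signal of the neutrophil markers, most of it from *Csf3r*, was 40735.9 to 50910.9 in Co mice and 48513.9 to 55616.5 in Pg mice (exact p = 0.0571), and that of the macrophage markers was 36411.2 to 42798.2 and 34534.1 to 56728.3 (exact p = 0.371). As a mean level per gene, relative to that gene's mean over all arrays, the 7 neutrophil markers tested stood at −0.38, −0.32, −0.27 and −0.37 in Co mice and 0.83, 0.71, −0.38 and 0.17 in Pg mice (log2). Their largest log2 fold changes were those of *S100a8* (2.16, limma, q = 0.132) and *S100a9* (2.04, q = 0.195). *Csf3r*, *Mmp8*, *Ly6g*, *Camp* and *Elane* were at 0.24, 0.16, 0.09, 0.01 and −0.03. None of the 7 was called, while 3 were higher at an unadjusted p under 0.05, against 1785 of all 22323 genes tested. *Ltf*, *Mmp9* and *Ngp* were above background on no array, and *Cxcr2* and *Retnlg* on at most 2. In whole tissue, fewer cells of one type and less RNA per cell cannot be told apart. The part of these markers in the results below was not tested.

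Several probes of one gene read different stretches of its transcripts, and the probes of *Stat3*, *Stat5a* and *Irf1* differed in sign between Pg and Co mice. In each of these genes the brightest probe was higher and every dimmer probe lower in Pg mice. The sequences of the probes that the results turn on are therefore shown first, 5′ to 3′, with their positions in mouse genome build mm9 as the scanner files give them. The first set is of the probes with the highest mean signal, of which only the last 30 bases are shown, with the polyadenylation hexamer AATAAA in capitals where the stretch holds it. They lie at chr10:127729834-127729893 (plus strand, *Stat2*), chr11:100749598-100749657 (minus strand, *Stat3*), chr11:100642045-100642104 (minus strand, *Stat5b*) and chr11:53590746-53590805 (plus strand, *Irf1*).
Stat2 A_55_P2059606: agtccttcgtacgtcatAATAAActtttgt
Stat3 A_51_P201480: actcctggctctgcactttcaaccttgcta
Stat5b A_55_P2031043: ttacAATAAAggcgtctccttgaaggacaa
Irf1 A_55_P2000062: cctgtgtaaatatgtatatttgtcttttta

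The second set holds the other probe of *Stat2*, *Stat5b* and *Irf1*, whole at 60 bases, because these are probes against which the first set is compared. They lie at chr10:127719861-127720302 (*Stat2*), chr11:100682720-100682779 (*Stat5b*) and chr11:53587446-53587591 (*Irf1*). The *Stat2* and *Irf1* probes cover 442 and 146 bases of the genome with 60 bases of sequence, so each crosses a splice junction. The *Stat5b* probe was designed on a cDNA clone and is matched to no RefSeq transcript in the scanner files, unlike 14 of the 16 probes. The share of G and C was 65.0% in the *Stat2* probe, 36.7% in the *Stat5b* probe and 51.7% in the *Irf1* probe.
Stat2 A_66_P102138: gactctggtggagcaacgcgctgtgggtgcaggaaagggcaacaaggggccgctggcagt
Stat5b A_52_P663027: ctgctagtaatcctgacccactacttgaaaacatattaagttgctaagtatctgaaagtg
Irf1 A_52_P175685: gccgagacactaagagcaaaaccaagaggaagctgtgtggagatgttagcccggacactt

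For *Stat5a* the probe with the highest mean signal, shown whole, lies 1073 bases upstream of its other probe, of which the last 30 bases are shown. The probes lie at chr11:100745240-100745299 and chr11:100746373-100746432 on the plus strand, and hold 63.3% and 35.0% of G and C.
Stat5a A_66_P115018: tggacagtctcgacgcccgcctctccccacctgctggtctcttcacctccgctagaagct
Stat5a A_55_P1990495: atattttgtacatagaactcaacatttatg

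All 16 probes of the 9 genes were well above background on all 8 arrays, and none was saturated. No gene was called in the limma fit by the probe that stood for it (0 of 9 genes, against 6.23% of all 22323 genes tested), and the lowest q among them was 0.156. In the same fit 3 of 9 genes had an unadjusted p under 0.05, namely *Stat2*, *Stat5a* and *Irf1*, all higher in Pg mice, against 20.3% of all genes. Over all probes of these genes, 1 of 16 was called, against 7.82% of all probes tested (1.82% higher and 6.00% lower), and it was the *Stat5b* probe A_52_P663027, lower in Pg mice. An unadjusted p under 0.05 was reached by 6 of the 16 probes, 3 higher and 3 lower, against 22.8% of all probes (6.86% higher and 16.0% lower). Of the 16 probes 9 were higher in Pg mice, against 42.3% of all probes. The gene probes leaned upward, with 7 of 9 higher in Pg mice, against 47.2% of all genes tested. Their median log2 fold change was 0.21 and that of all genes was −0.01. The lean was weaker without Pg replicate 2 (median 0.13) and with the mean of all probes of a gene (median 0.12), where 5 genes were higher. None of the 9 genes had Co and Pg values without overlap, which was the case for 14.3% of all genes. The 95% intervals of the 9 genes lay between −0.48 and 0.90.

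**Figure D1:**
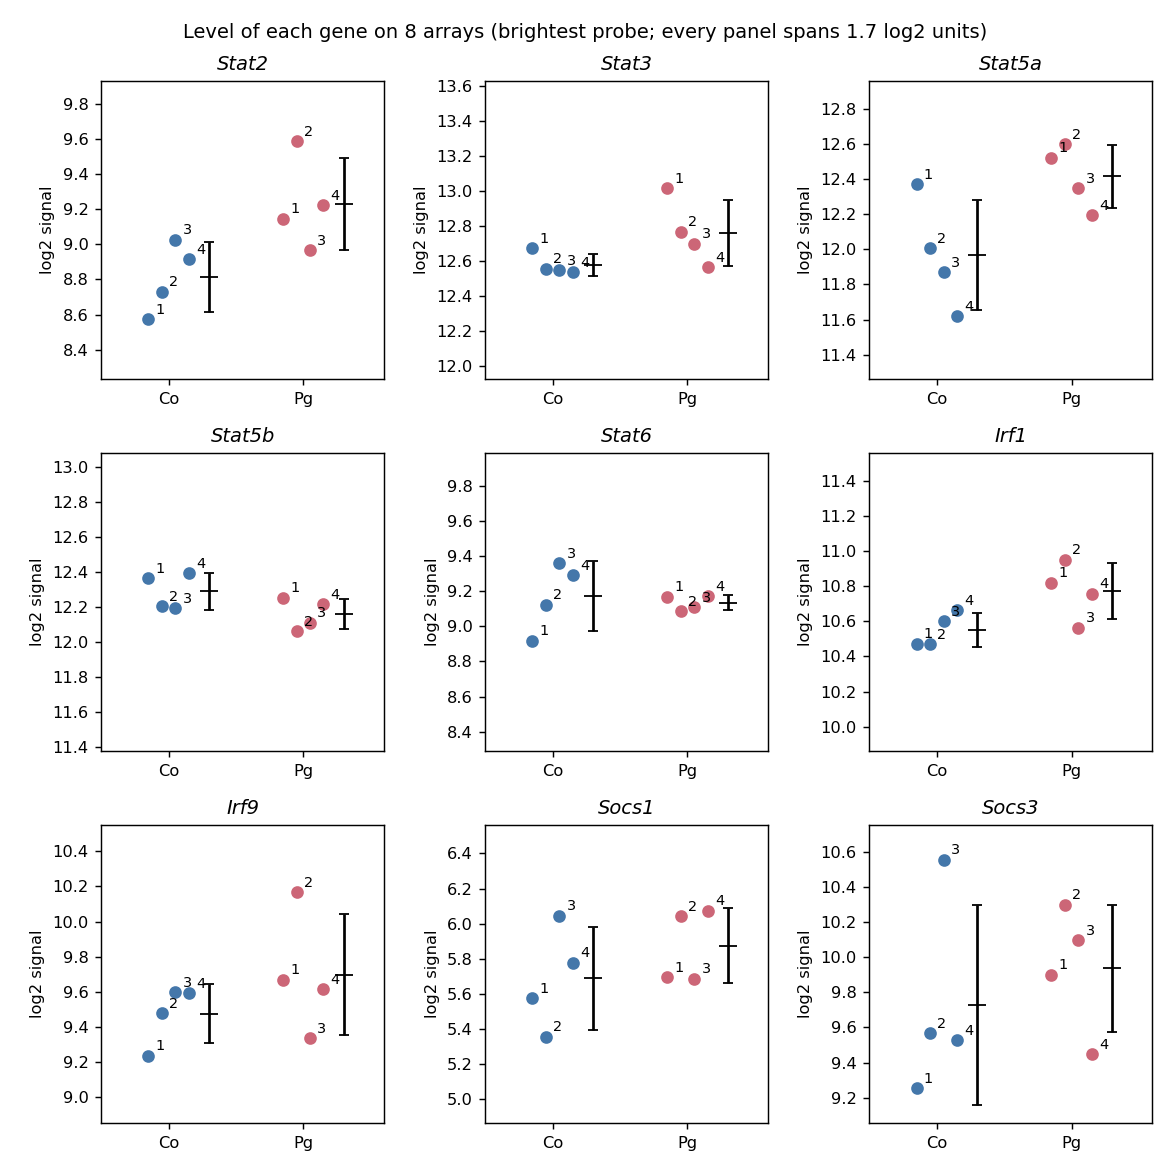
Level of each of the 9 genes, as log2 signal after quantile normalization (vertical axis), on 4 Co arrays (blue) and 4 Pg arrays (red), by the probe with the highest mean signal. Numbers are replicates, and the horizontal mark and bar give mean and SD (n = 4). The groups overlap in every panel.

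Among the interferon transcription factors, *Stat2* had the smallest unadjusted p of the 9 genes (0.0240) without passing the threshold. STAT2 is the partner that brings a strong activation domain to its complex with IRF9. Its signal was 8.57, 8.73, 9.03 and 8.92 on the Co arrays and 9.15, 9.59, 8.97 and 9.22 on the Pg arrays. Pg replicates 1, 2 and 4 lay above every Co array, and Pg replicate 3 lay below Co replicate 3. The mean was 8.81 ± 0.20 in Co mice and 9.23 ± 0.26 in Pg mice (SD, n = 4), a log2 fold change of 0.42 (SE 0.15, limma, q = 0.156), or 1.34-fold. Without Pg replicate 2 it was 0.30 (q = 0.255). The other *Stat2* probe, which crosses the splice junction, read 5.19, 5.84, 5.24 and 5.09 on the Co arrays and 6.12, 5.65, 5.33 and 5.56 on the Pg arrays. Its log2 fold change was 0.32 (q = 0.405), with the same sign, and only Pg replicate 1 lay above all Co arrays. It was 0.17 without that array, 0.49 without Co replicate 2 and 0.15 with normexp on the mean signal.

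*Irf9* encodes the DNA-binding member of the same complex. The probe A_55_P2114938, at chr14:56228806-56228865, read 9.24, 9.48, 9.60 and 9.59 on the Co arrays and 9.67, 10.17, 9.34 and 9.62 on the Pg arrays. Pg replicate 2 stood highest and Pg replicate 3 lay within the Co range. The log2 fold change was 0.22 (SE 0.17, q = 0.486), with 0.07 without Pg replicate 2, 0.14 without Co replicate 1 and 0.34 without Pg replicate 3. The probe A_51_P127367, at chr14:56228256-56228315 in the same gene, gave 8.35, 8.28, 8.39 and 8.72 in Co mice and 8.51, 8.88, 8.42 and 8.55 in Pg mice, a log2 fold change of 0.15 (q = 0.513), which was 0.060 without Pg replicate 2 and 0.25 without Co replicate 4. Again Pg replicate 2 was the highest array, and the groups overlapped.

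*Irf1* encodes the transcription factor that carries much of the interferon gamma response. It read 10.47, 10.47, 10.60 and 10.66 on the Co arrays and 10.82, 10.95, 10.56 and 10.76 on the Pg arrays. As for *Stat2*, Pg replicates 1, 2 and 4 lay above all Co arrays and Pg replicate 3 did not. The log2 fold change was 0.22 (SE 0.09, unadjusted p = 0.0451, q = 0.209). This gene was called with other treatments of the background, at 0.28 with normexp on the mean signal (q = 0.0762) and 0.28 with the median signal (q = 0.0792), and it was 0.0012 in the authors' own log2 values (q = 0.995). The probe across the splice junction pointed the other way: it read 5.54, 5.69, 5.75 and 6.67 in Co mice and 5.38, 5.56, 5.55 and 5.73 in Pg mice (log2 fold change −0.35, q = 0.412). Co replicate 4 stood above the rest of that probe's values, and without it the log2 fold change was −0.10 (q = 0.595). As the mean of both probes, *Irf1* had a log2 fold change of −0.07.

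Over the arrays, *Stat2*, *Irf9* and *Irf1* shared their highest value, on Pg replicate 2. Target genes of STAT2 and IRF9 had a mean level, relative to each gene's mean over the 8 arrays, of −0.34, −0.34, −0.13 and 0.08 on the Co arrays and −0.06, 0.65, −0.08 and 0.22 on the Pg arrays (19 genes, log2). Target genes of IRF1 had −0.46, −0.26, −0.06 and 0.07 on the Co arrays and 0.02, 0.54, −0.30 and 0.44 on the Pg arrays (20 genes). Pg replicate 2 was highest in both lists, and Pg replicates 1 and 3 lay within the Co range in both. On the same scale 12 macrophage markers were at −0.21, −0.45, 0.13 and 0.07 in Co mice and −0.0029, 0.65, −0.65 and 0.47 in Pg mice, so that Pg replicate 2 was highest, as in the interferon lists, and Pg replicate 3 was lowest of all 8 arrays. Their part in these levels was not tested.

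**Figure D2:**
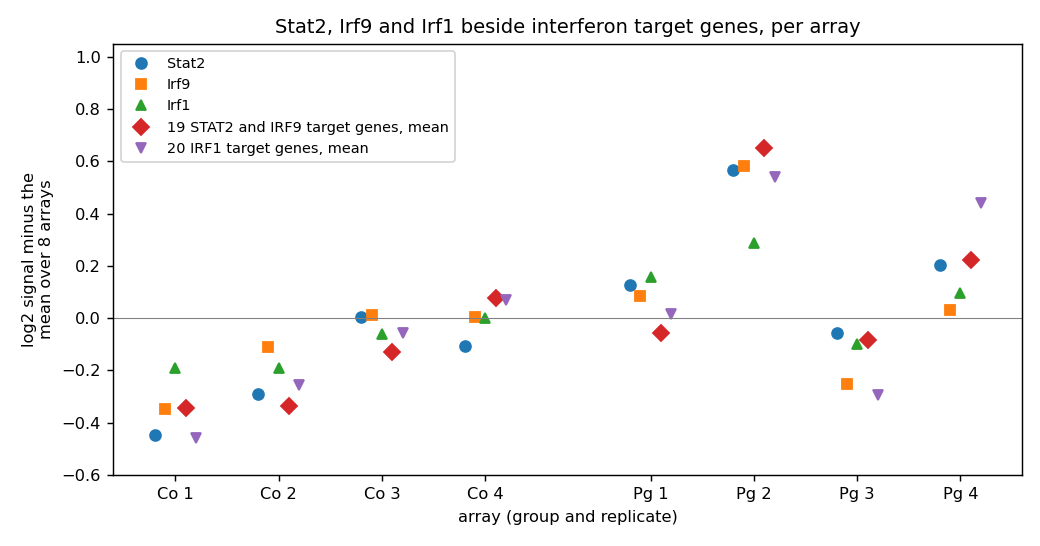
Level of *Stat2*, *Irf9* and *Irf1* and the mean level of 2 lists of interferon target genes on each array (horizontal axis: array by group and replicate), as log2 signal minus each gene's mean over the 8 arrays (vertical axis). All 5 series have their highest point on Pg replicate 2, where the lists stand at 0.65 and 0.54.

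In the list of STAT2 and IRF9 targets, 18 of 19 tested genes were higher after Pg injection and the median log2 fold change was 0.37, against −0.01 over all genes. Without Pg replicate 2 these were 16 genes and 0.24. Only *Dhx58*, which encodes the RNA sensor LGP2, passed the test (0.76, SE 0.19, q = 0.0796), as against 2.05% of all genes called higher. It read 4.97, 4.79, 5.24 and 5.21 in Co mice and 5.53, 6.36, 5.66 and 5.72 in Pg mice, and the groups did not overlap. With any single array left out it had a q of 0.0990 to 0.168, and it was called in 1 of these 8 fits. Its log2 fold change was 0.35 with normexp on the mean signal (q = 0.0573), 0.37 with the median signal (q = 0.0505) and 0.52 in the authors' log2 values (q = 0.0572), and it was called in all 3. Over all 19 other settings *Dhx58* was called in 9, with log2 fold changes of 0.35 to 0.95. At an unadjusted p under 0.05, 6 of the 19 genes were higher and none was lower, against 1785 higher and 2743 lower of all 22323 genes tested. *Mx1*, which carries large deletions in many inbred strains, was not above background on any array. Among the IRF1 targets 18 of 20 genes were higher, with a median of 0.32, and without Pg replicate 2 these were 17 genes and 0.22. Here *Icam1*, the adhesion molecule by which leukocytes bind to the vessel wall, rose by 0.74 (SE 0.18, q = 0.0755). It read 8.21, 8.22, 8.68 and 8.40 in Co mice and 9.44, 9.19, 8.65 and 9.20 in Pg mice, so that Pg replicate 3 lay below Co replicate 3. With any single array left out its q was 0.0513 to 0.163, and it was called in 1 of 8 fits. A dimmer *Icam1* probe, A_52_P613241, had a log2 fold change of 0.41 (q = 0.642), and the mean of both probes one of 0.58 (q = 0.328). The endothelial markers, of which 9 of 12 were higher, and the neutrophil markers, whose mean level was highest on Pg replicates 1 and 2, are given above. Their part in the level of this gene was not tested.

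*Stat3* encodes the transcription factor of the interleukin-6 and leptin response. Its probe A_51_P201480 read 12.67, 12.56, 12.55 and 12.54 on the Co arrays and 13.02, 12.77, 12.70 and 12.57 on the Pg arrays. Pg replicates 1, 2 and 3 lay above all Co arrays and Pg replicate 4 among them. The log2 fold change was 0.18 (SE 0.10, q = 0.310), 0.10 without Pg replicate 1 (q = 0.497) and −0.06 as the mean of all *Stat3* probes. The second *Stat3* probe read 7.58, 7.49, 7.44 and 7.50 on the Co arrays and 7.07, 7.10, 7.44 and 7.13 on the Pg arrays. The log2 fold change was −0.32 (SE 0.09, unadjusted p = 0.00922, q = 0.107), with lower values in Pg mice, and Pg replicate 3 was the only Pg array within the Co range. This probe was called in 4 of 18 other settings, with a q of 0.0521 without Pg replicate 3. The third *Stat3* probe, A_52_P569499, read 5.10 to 5.94 in Co mice and 5.13 to 5.91 in Pg mice (log2 fold change −0.06, q = 0.901). It lies at chr11:100746462-100746521 on the minus strand, 29 bases beyond the end of the downstream *Stat5a* probe on the plus strand.

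*Stat5a* and *Stat5b* encode close relatives that respond to growth hormone, prolactin and several interleukins, and they are neighbors of *Stat3* on chromosome 11. In the limma fit *Stat5a* had the largest log2 fold change of the 9 genes. Its probe A_66_P115018 read 12.37, 12.01, 11.87 and 11.62 on the Co arrays and 12.52, 12.60, 12.35 and 12.19 on the Pg arrays, and only Co replicate 1 lay within the Pg range. The log2 fold change was 0.45 (SE 0.16, unadjusted p = 0.0261, q = 0.162), or 1.37-fold. It was 0.52 with normexp on the mean signal, where it was called (q = 0.0984), 0.18 in the authors' log2 values (q = 0.301) and 0.12 as the mean of both probes (q = 0.519). The downstream *Stat5a* probe read 10.35, 10.23, 10.36 and 10.20 in Co mice and 10.07, 9.91, 10.05 and 10.24 in Pg mice. Here the log2 fold change was −0.22 (SE 0.08, q = 0.172), and Pg replicate 4 alone lay within the Co range.

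*Stat5b* gave the only call. Its probe A_52_P663027 read 5.99, 5.55, 6.00 and 6.09 on the Co arrays and 4.82, 5.53, 5.41 and 5.33 on the Pg arrays. The groups did not overlap, as for 15.8% of all probes tested, although Co replicate 2 and Pg replicate 2 were nearly equal. The signal fell by 0.64 on the log2 scale (SE 0.18, q = 0.0999), which was 1.55-fold lower and made this probe a DEG, as were 1.61% of all probes. The call lay at the edge of the threshold: q was 0.120 to 0.196 with any single array left out, and 0.157 when dim probes were not removed. With normexp on the mean signal the log2 fold change was −0.26 (q = 0.0998). The probe with the highest mean signal in *Stat5b* read 12.36, 12.20, 12.19 and 12.39 in Co mice and 12.25, 12.06, 12.11 and 12.22 in Pg mice, a log2 fold change of −0.13 (q = 0.345). Pg replicates 2 and 3 lay below all Co arrays and the other two among them.

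*Stat6* encodes the transcription factor of the interleukin-4 and interleukin-13 response. It has a single probe, at chr10:127097689-127097748 on the plus strand. It read 8.92, 9.12, 9.36 and 9.29 on the Co arrays and 9.17, 9.08, 9.11 and 9.17 on the Pg arrays. All Pg arrays lay within the Co range. The log2 fold change was −0.04, with a 95% interval from −0.27 to 0.19 (q = 0.844).

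**Figure D3:**
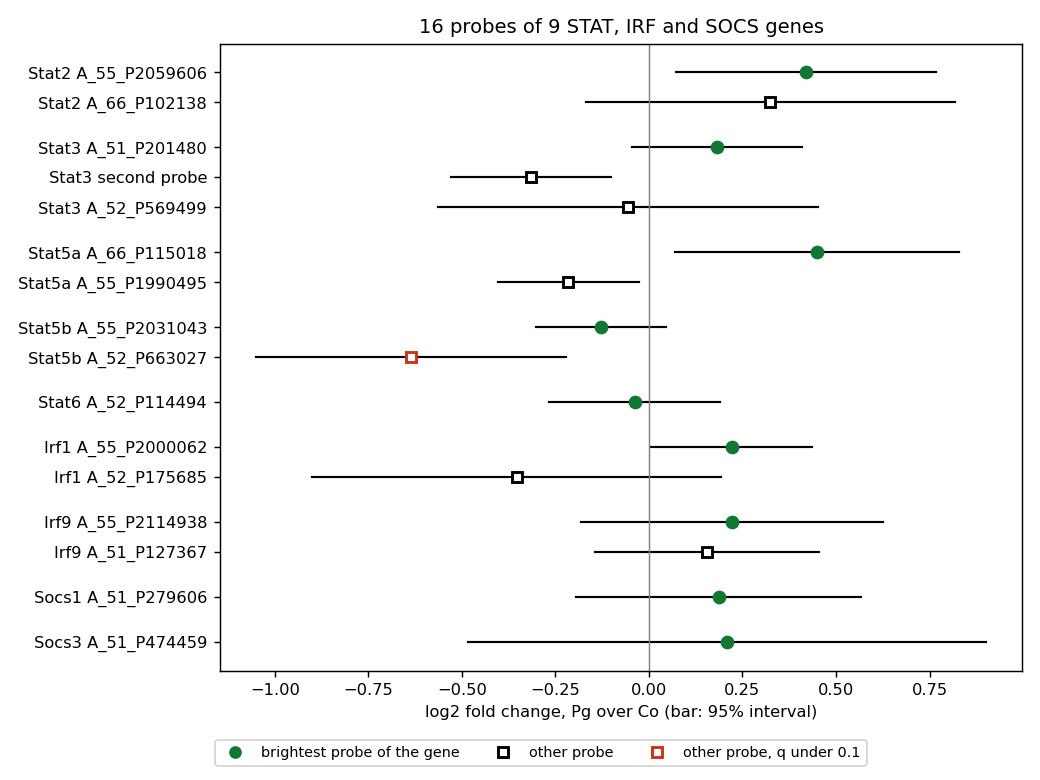
Log2 fold change of Pg over Co mice (horizontal axis) for each of the 16 probes, with the 95% interval from limma as a bar (n = 4 arrays per group). Filled circles are the probes with the highest mean signal of a gene and squares are other probes, with the one probe at q under 0.1 in red. *Stat3*, *Stat5a* and *Irf1* have probes on both sides of 0.

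The probes of a gene were then compared within each array, which removes what the probes of an array share. For *Stat3*, the signal of A_51_P201480 exceeded that of the second probe by 5.09, 5.07, 5.11 and 5.04 on the Co arrays and by 5.95, 5.67, 5.26 and 5.43 on the Pg arrays (log2 difference). The Co arrays lay close together and every Pg array lay above them. The shift between the groups was 0.50 (two-sided exact permutation test over the 8 arrays, p = 0.0286). The groups overlapped in the pairs with the third *Stat3* probe. Their shifts were 0.24 for A_51_P201480 (exact p = 0.429) and −0.26 for the second probe (exact p = 0.314). For *Irf1*, the difference between the probes was 4.93, 4.78, 4.85 and 4.00 in Co mice and 5.44, 5.39, 5.01 and 5.03 in Pg mice. The groups did not overlap here, with a shift of 0.58 (exact p = 0.0286), which was 0.36 without Co replicate 4. For *Stat5a* the difference was 2.02, 1.77, 1.51 and 1.42 in Co mice and 2.45, 2.69, 2.30 and 1.96 in Pg mice, a shift of 0.67 in which Co replicate 1 and Pg replicate 4 overlapped (exact p = 0.0571). For *Stat5b* it was 6.37, 6.66, 6.20 and 6.30 in Co mice and 7.43, 6.53, 6.70 and 6.89 in Pg mice, a shift of 0.51 (exact p = 0.0571). The shift of *Stat5b* was 0.33 without Pg replicate 1 and 0.14 with normexp on the mean signal. The pair of *Stat2* shifted by 0.10 (exact p = 0.771) and that of *Irf9* by 0.07 (exact p = 0.657). After Benjamini-Hochberg adjustment over the 8 pairs of probes compared, the lowest p was 0.114, so that no shift passed a threshold of 0.1. The probes differ in base composition and brightness as well as in position, and the part of each in these shifts was not tested.

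**Figure D4:**
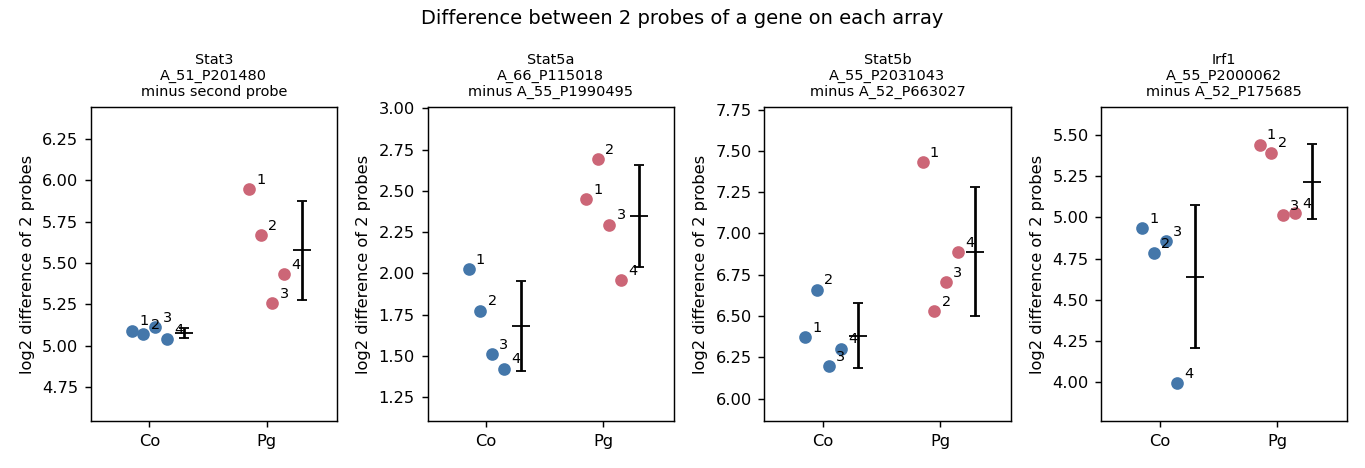
Difference in log2 signal between 2 probes of the same gene on each array (vertical axis) for *Stat3*, *Stat5a*, *Stat5b* and *Irf1*, on Co (blue) and Pg (red) arrays. Numbers are replicates, and the mark and bar give mean and SD (n = 4). The *Stat3* pair shown is A_51_P201480 minus the second probe. The groups do not overlap for this pair and for *Irf1*, and overlap for *Stat5a* and *Stat5b*.

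Both SOCS genes were measured by 1 probe. *Socs1*, which restrains interferon signaling, was read at chr16:10783951-10784010 on the minus strand. Its signal was 5.58, 5.36, 6.04 and 5.78 on the Co arrays and 5.70, 6.04, 5.69 and 6.07 on the Pg arrays. The groups overlapped almost fully, and the log2 fold change was 0.19 (SE 0.16, q = 0.536). It was 0.075 without Co replicate 2, 0.12 without Pg replicate 4, 0.13 without Pg replicate 2 and 0.31 without Co replicate 3. *Socs3*, which restrains interleukin-6 and leptin receptors, was read at chr11:117827480-117827539 on the minus strand. It gave 9.26, 9.57, 10.56 and 9.53 in Co mice and 9.90, 10.30, 10.10 and 9.45 in Pg mice. The highest of all 8 arrays was Co replicate 3, and the lowest Pg array lay below 3 of the Co arrays. The SD was 0.57 in Co mice and 0.36 in Pg mice, the log2 fold change was 0.21 (SE 0.30, q = 0.712), and its 95% interval from −0.48 to 0.90 was the widest of the 9 genes. Its log2 fold change was 0.49 without Co replicate 3 (q = 0.256), 0.37 without Pg replicate 4, 0.088 without Pg replicate 2 and 0.052 without Co replicate 1.

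Of the other SOCS genes, 5 of 6 were higher, at a median of 0.18 on the log2 scale, and none was called by limma (0 of 6 also at an unadjusted p under 0.05). The smallest p was that of *Socs7* (0.20, q = 0.228). The other genes listed here as inhibitors of the pathway leaned the other way, with 9 of 12 lower and a median of −0.08. Of these 12, 4 were called lower, against 4.18% of all genes. The list was chosen with earlier results of these data known, so this count is a description and not a test of the list. *Pias3*, an inhibitor of STAT3, fell by 0.41 on the log2 scale (SE 0.08, q = 0.0573). It read 7.31, 7.27, 7.30 and 7.38 in Co mice and 6.68, 7.00, 6.92 and 7.00 in Pg mice, so that all Pg arrays lay below all Co arrays. With the median signal it was at −0.25 (q = 0.0981). *Pias4*, of the same family of SUMO ligases, fell by 0.32 (q = 0.0621), with Co arrays between 9.42 and 9.51 and Pg arrays between 8.98 and 9.23. *Irf2bp1* and *Irf2bp2*, which encode corepressors that bind IRF2, fell by 0.42 (q = 0.0630) and by 0.35 (q = 0.0907). Their groups did not overlap either. The count of 4 depended on single arrays, with 0 called without Co replicate 2, 3 or 4, 1 without Co replicate 1 or Pg replicate 1 or 2, and 2 without Pg replicate 4. The signs of these 4 genes held in each of those fits.

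Upstream of the STATs, most ligands were too dim to compare. Of 17 ligand genes 5 were tested, and *Ifng*, *Ifnb1*, *Ifna4*, *Il10* and *Il4* were above background on no array, while *Il6* was above background on at most 2. The smallest p among the ligands was that of *Lep*, the hormone of the fat cell (0.12, q = 0.407). Of 19 receptors tested, 13 were higher, at a median of 0.11, and none was called by limma. Of these receptors 4 were higher at an unadjusted p under 0.05, against 1785 of all 22323 genes tested. The smallest p belonged to *Csf2rb*, the shared chain of the receptors for GM-CSF and interleukin-3 and interleukin-5, at 0.81 (SE 0.23, q = 0.105). Its other probe had a log2 fold change of −0.22 (q = 0.549), and the mean of both probes one of 0.29 (q = 0.455). *Csf2rb* was called in 6 of 18 other settings, among them normexp (0.54, q = 0.0698) and the median signal (0.60, q = 0.0567). *Csf2rb* has a close copy in the mouse genome, *Csf2rb2*, and the array may not separate them. *Csf3r* counts both as a receptor and as a neutrophil marker in these lists. All 4 Janus kinases were lower, but by at most a log2 fold change of −0.13, in *Jak2* (q = 0.332), and none was called (0 of 4 also at an unadjusted p under 0.05).

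Downstream, the lists are described by counts and medians, and no test compared one list with another. Of 19 STAT3 target genes tested, 13 were higher with a median of 0.18, and *Timp1*, an inhibitor of matrix metalloproteinases, rose by 0.57 (SE 0.14, q = 0.0807). It read 9.36, 9.54, 9.95 and 9.36 in Co mice and 10.24, 10.23, 9.95 and 10.05 in Pg mice, and the groups touched without overlapping at Co replicate 3 and Pg replicate 3. With any single array left out its q was 0.0922 to 0.163, and it was called in 1 of 8 fits. At an unadjusted p under 0.05, 4 of the 19 genes were higher and 2 were lower, against 1785 and 2743 of all 22323 genes tested. The lower ones were *Cebpb*, which encodes a transcription factor of fat cell formation and inflammation (−0.30, q = 0.154), with groups that did not overlap, and *Myc*, a growth gene (−0.39, q = 0.206). The STAT5 targets lay around 0, with 4 of 9 higher and a median of −0.03, and the smallest p was that of *Bcl2l1*, a survival gene (−0.29, q = 0.387). All 5 probes of *Bcl2l1* were lower in Pg mice, and one of them, A_52_P510877, was called and was a DEG (−0.68, q = 0.0873). All 8 STAT6 targets tested were higher, with a median of 0.24, but none was called by limma and 1 had an unadjusted p under 0.05. That gene was *Pparg*, the main transcription factor of fat cells (0.23, q = 0.158). The study's own quantitative PCR found *Pparg* significantly lower in the BAT of Pg mice, the opposite direction to this probe. The mean level of the 8 genes was −0.18, −0.36, 0.11 and −0.14 on the Co arrays and 0.31, 0.37, −0.43 and 0.31 on the Pg arrays, relative to each gene's mean. Pg replicate 3 was lowest of all arrays, as for the macrophage markers, whose part was not tested. Without it the median of the list was 0.36. *Mrc1*, a STAT6 target in this list, is also one of the macrophage markers.

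**Figure D5:**
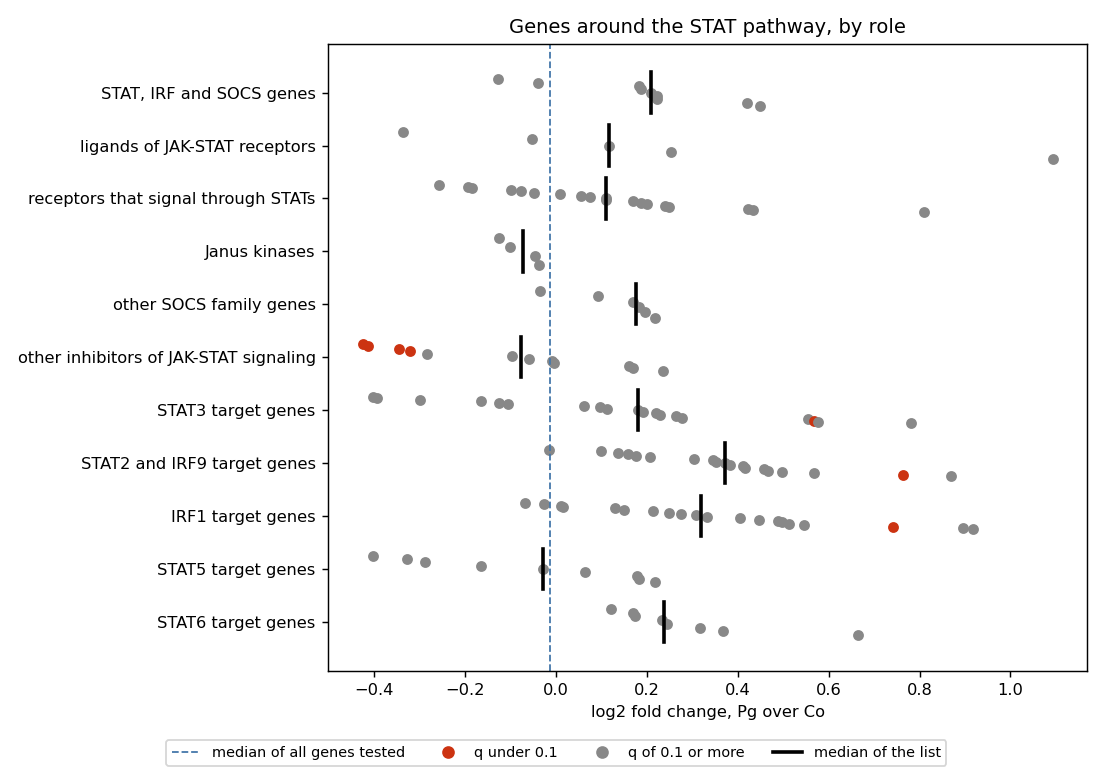
Log2 fold change of Pg over Co mice (horizontal axis) for the 9 genes and for each tested gene of 10 lists of the pathway, by role (rows). Black bars are medians of a list, red points are genes at q under 0.1, and the dashed line is the median of all genes tested. The target genes of STAT2 and IRF9 have the rightmost median, at 0.37, and 4 inhibitors lie in red on the left.

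The genes whose values over the 8 arrays ran closest to those of *Stat2* were sought among the other 22322 genes, by the root mean square difference of log2 values after each gene's mean was removed. They were *Limd2* (0.0632), *Ifi47*, an interferon-inducible GTPase (0.0676), and *Cysltr1*, a leukotriene receptor (0.0747), with log2 fold changes of 0.38, 0.39 and 0.45 and none called. For the called *Stat5b* probe the nearest were *Gm36660* (0.132), *Camk2a* (0.138) and *2610008G14Rik* (0.141), at −0.66, −0.54 and −0.41, again with none called.

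The promoters of the 9 genes were searched on both strands for 3 motifs in the window from 250 bases before to 50 bases after each RefSeq start (build GRCm38.p6, 13 windows for all 9 genes). The motifs were the GAS element TTCNNNGAA, bound by most STAT pairs, the wider site TTCNNNNGAA, bound by STAT6, and the core GAAANNGAAA of the interferon-stimulated response element. GAS was found in *Irf1* and *Socs3*, and in 8.3% of all promoter windows of the mouse (9.55% of all genes). The response element core was found in *Socs1* and *Stat2*, and in 3.44% of all windows (3.99% of all genes). TTCNNNNGAA was found in *Stat2* and *Irf9*, and in 6.95% of all windows (8.01% of all genes). A match of letters is a description and does not show binding. The 4 stretches shown here, with the matches in capitals, are those in which *Stat2*, *Irf1* and both SOCS genes carry a GAS or response element match. They lie at chr10:128270256-128270305 (*Stat2*, plus strand, match 222 bases before the start), chr11:53769904-53769952 (*Irf1*, plus strand, 90 bases before), chr16:10785590-10785639 (*Socs1*, minus strand, 83 and 77 bases before, overlapping) and chr11:117969492-117969540 (*Socs3*, minus strand, 154 bases before). In the *Stat2* stretch the first capitals are the response element core read on the other strand and the second are TTCNNNNGAA, 210 bases before the start.
Stat2 promoter: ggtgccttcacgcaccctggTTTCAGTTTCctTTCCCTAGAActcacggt
Irf1 promoter: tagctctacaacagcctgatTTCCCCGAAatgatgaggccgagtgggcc
Socs1 promoter: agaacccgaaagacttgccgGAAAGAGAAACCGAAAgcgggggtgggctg
Socs3 promoter: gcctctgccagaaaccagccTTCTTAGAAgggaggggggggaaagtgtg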

How the data were processed

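Total RNA of 4 Co and 4 Pg mice was measured on Agilent one-color arrays. The authors deposited, per array, the output of Feature Extraction 11.0.1.1, which holds the Cy3 intensity of each spot before normalization between arrays, with probe positions in build mm9. The authors also deposited a table of quantile-normalized log2 values, used here as an alternative only, with limma fold changes, p-values, q-values and score columns that were not used. The flags for background and outlier spots came as deposited.

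The processed intensity, already background-subtracted, was read in R 4.3.3 (package data.table, version 1.17.8). Control spots and population outliers were left out, the spots of a probe were averaged, and the 8 arrays were quantile-normalized, set to no less than 1 and converted to log2. The groups were compared over the 33819 of 56605 probes flagged well above background on 4 or more arrays, by the moderated two-sided test of limma 3.58.1 (lmFit, eBayes), adjusted after Benjamini and Hochberg. Groups and replicate numbers came from the sample titles. Gene names are those of the array. Figures were drawn with matplotlib 3.10.9. The fit was tested on simulated data. Single values and differences between probes were compared by exact permutation over the 70 splits of 8 arrays. Precision is limited by the number of arrays, and p-values measure the spread between mice.

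Named genes were all 9 genes with every probe, and of each pathway list the genes at q under 0.1 or else the one with the smallest p. For the 9 genes' called probe and for the gene with the smallest p, the 3 nearest patterns were named. Marker genes, ligands and *Mx1*, *Csf3r*, *Cebpb*, *Myc* and *Mrc1* were named after their values were seen. The 9 genes and all lists were chosen with earlier results of these data known. Alternatives were normexp with an offset of 50 on the mean signal, the median signal, scaling to the 75th percentile, no normalization, other filters, the authors' log2 values, the mean of all probes of a gene, an intensity trend, array weights, a replicate block and leaving out each array. The comparison of probe pairs and the alternatives for lists and for genes outside the 9 were added after the data were seen. One gene with its list and the sequence and position of 1 probe are not reported here.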

Additional observations from a re-analysis of the deposited data

Results flagged for a closer look

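Co replicate 1 of the *Stat3* probe A_51_P201480 stood apart within its group, at a log2 signal of 12.67 where the nearest of the other Co arrays was at 12.56. It was 1 of 32 groups of 4 values checked by Dixon's criterion, which chance meets in about 1 in 20. Without this array the log2 fold change of the probe was 0.21 (limma, q = 0.319). Without Pg replicate 1, the highest Pg array, it was 0.10 (q = 0.497).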

How the results depend on the processing

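*Stat2*, *Stat5a*, *Irf9*, *Socs1* and *Socs3* kept a positive and *Stat5b* a negative log2 fold change in every setting run, 18 settings for *Stat2* and 19 for the others. *Irf1* was called with normexp (0.28, q = 0.0762) and with the median signal (0.28, q = 0.0792), and *Stat5a* with normexp (0.52, q = 0.0984). Averaging all probes of a gene reversed *Irf1* to −0.0659 and *Stat3* to −0.0631, since their probes differ in sign. *Stat6* reversed to 0.0038 without normalization and ranged from −0.12 to 0.0238 with single arrays left out. The *Stat3* probe A_52_P569499 reversed to 0.0169 with normexp, 0.0058 with the median signal, 0.0734 with the 75th percentile, 0.12 without normalization and 0.0313 in the authors' values, and ranged from −0.22 to 0.10 with single arrays left out. The count of member genes called went from 0 to 2 with normexp and 1 with the median signal. The count of member probes called went from 1 to 3 with normexp, 3 with the median signal, 2 when all 8 arrays had to be above background, and 0 with the 75th percentile, without normalization and without a filter, and was 0 to 1 with single arrays left out. Over all probes, 2644 calls became 3452 with normexp, 3065 with the median signal, 3009 when all 8 arrays had to be above background, 1546 with the 75th percentile, 29 without normalization, 1269 without a filter and 1715 in the authors' values. They became 3 without Co replicate 3 and at most 2378 with another array left out. The inhibitors called lower went from 4 to 0 without normalization and were 0 to 4 with single arrays left out, and their median of −0.08 became −0.28 in the authors' values. The shift of the *Stat2* probe pair was −0.10 to 0.28 with single arrays left out. The cause of these changes was not tested.

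Replicate numbers did not pair the samples: deviations from the group means correlated at 0.06, −0.03, −0.07 and 0.18 between same-numbered arrays. With the replicate number as a block, 0 probes were called in all, 0 member probes and 0 inhibitors, and the *Stat5b* probe had a q of 0.180. With other treatments of the background its log2 fold change of −0.64 was −0.26 with normexp and −0.35 with the median signal.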
